A study of Rattus norvegicus with 10 samples.

Results

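The 9 genes described here encode proteins of the myelin sheath and enzymes that make its lipids: Mbp, Mobp, Cldn11, Mal, Mag, Mog, Cnp, Fa2h and Ugt8. They were taken from the array by symbol, as every probe set that the platform annotation gives to exactly 1 of these genes. They are 9 of the 14217 genes with a symbol of their own on the array. The rule found 16 of the 31042 probe sets that are not array controls, and 15 of the 16 were among the 15521 probe sets kept by a filter on low values. All 9 genes kept at least 1 probe set.

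The RNA came from the prefrontal cortex of 10 male rats of the inbred Lewis strain, with 1 array per rat. The piece taken was frontal areas Fr1 and Fr2, and the olfactory bulb was left off. They came from an experiment in which 40 animals were tested for behaviour, and were killed 6 days after their last test. No rat was treated, no genotype was altered and no age is given, so the rats form 1 group, and the labels name each rat as a separate individual. Each rat carries scores for startle, prepulse inhibition, locomotion and sugar feeding. A plus maze score is given for 7 of them, and all scores come without a stated unit.

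Myelin is the stack of membrane that oligodendrocytes wrap around axons in the brain. Its layers are pressed together on the inner face by Mbp, a basic protein, and its membrane is rich in galactolipids, which Ugt8 makes from ceramide, often with a fatty acid hydroxylated by Fa2h. Mobp is a further small basic protein of central myelin, and Mal is a membrane protein of lipid-rich domains. Cldn11 forms the tight junctions between myelin turns. Mag lies on the layer that faces the axon, Mog lies on the outermost layer, and Cnp is an enzyme of the channels of cytoplasm that remain within the sheath. The sheath is made by mature oligodendrocytes under the transcription factors Sox10 and Myrf.

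The upstream sequences of 4 members are shown because stretches of letters recur in them. They come from RefSeq (rat assembly GRCr8), which gives windows from 250 bases before to 50 bases after a start site. Of the 9 genes, 8 have such a window, with 9 windows in all since Mbp has 2. Mog has none. In the lines for Mag, Cnp and Mal, which run from 250 to 69 bases before the start, the capitals mark an 11-base stretch, TGGCACCCAGG, that all 3 share. In the line for Mobp, from 250 to 106 bases before the start, the capitals mark CTTTGT, the reverse complement of ACAAAG. The Mag window lies at chr1:95291113-95291294 on the minus strand, that of Cnp at chr10:86011254-86011435 on the plus strand, that of Mal at chr3:135341492-135341673 on the minus strand and that of Mobp at chr8:128746982-128747126 on the plus strand.
Mag: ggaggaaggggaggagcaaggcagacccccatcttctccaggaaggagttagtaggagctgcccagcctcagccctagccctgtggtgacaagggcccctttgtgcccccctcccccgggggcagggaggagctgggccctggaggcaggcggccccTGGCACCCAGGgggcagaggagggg
Cnp: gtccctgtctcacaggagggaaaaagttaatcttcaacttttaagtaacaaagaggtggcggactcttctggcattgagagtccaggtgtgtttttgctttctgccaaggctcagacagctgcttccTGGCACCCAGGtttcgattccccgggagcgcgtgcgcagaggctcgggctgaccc
Mal: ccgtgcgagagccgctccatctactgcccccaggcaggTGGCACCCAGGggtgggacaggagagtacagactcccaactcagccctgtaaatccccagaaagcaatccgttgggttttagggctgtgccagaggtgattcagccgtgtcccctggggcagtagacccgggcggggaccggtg
Mobp: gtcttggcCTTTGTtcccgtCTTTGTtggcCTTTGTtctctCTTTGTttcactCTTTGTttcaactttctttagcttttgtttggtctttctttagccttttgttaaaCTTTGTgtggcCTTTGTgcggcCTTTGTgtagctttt

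The shared stretch was found by reading the sequences. It begins 93 bases before the start that the window uses for Mag, 123 before that of Cnp and 212 before that of Mal. For Mag and Mobp the start used lies inside the gene, whose outermost start is at chr1:95291133 and chr8:128747117. The marked stretch of Mag overlaps that outermost start. On either strand it occurred in 19 of the 33469 windows in the RefSeq table (0.0568%). Mag and Cnp share 13 bases there, CCTGGCACCCAGG, which 6 windows hold (0.0179%). Both strands were also searched for CTGGCAC, a sequence recognised by Myrf. It was present in the windows of Mag, Cnp and Mal, 3 of 9 member windows against 4.75% of all windows. In Mag and Cnp this match lies within the 13 shared bases, whereas in Mal it lies on the other strand, 126 bases before the start. ACAAAG, a sequence recognised by Sox proteins, was present in 4 of 9 member windows (Mag, Cnp, Mobp and 1 of Mbp) against 18.8% of all windows. The Mobp window held it 8 times, and 3 of 33469 windows held it at least as often. ACAAT, a further Sox sequence, was present in 1 window of Mbp against 33.7% of all windows. A match describes the letters and does not show that a factor binds there.

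All 9 genes were read far above the filter, and all varied between rats in nearly the same order. The deposited values are on a log2 scale, where a difference of 1 is a 2-fold difference between rats. A gene is represented by its probe set of highest mean, and the level of a probe set is compared only with its own level in other rats. Rat 7 had the highest value of all 9 genes, and rat 3 had the lowest value of 8, the exception being Fa2h. Rats 2 and 3 were among the 3 lowest rats for 9 of 9 genes and rat 9 for 6. Rat 4 was among the 3 highest for 7 genes, rat 10 for 6 and rat 6 for 4. In RNA from whole tissue, fewer oligodendrocytes, less RNA per oligodendrocyte and a different make-up of the piece taken cannot be told apart.

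**Figure D1:**
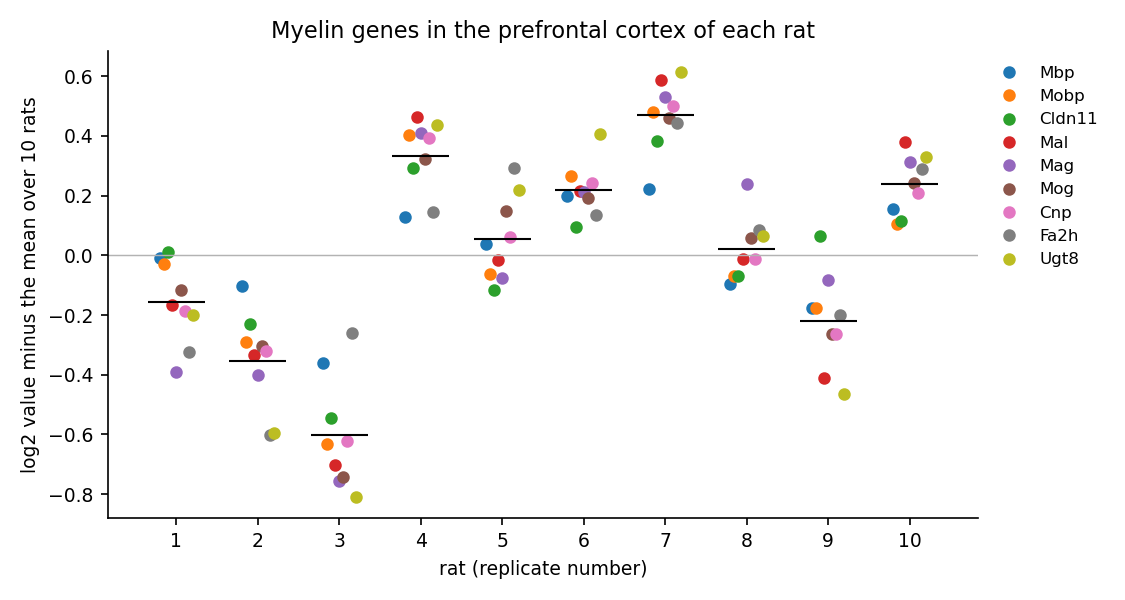
Level of each of 9 myelin genes in 10 rats, as the log2 value minus the gene's mean over the rats (y axis), by rat (x axis). Points are genes and the black bar is the mean of the 9 genes in a rat. The bar is lowest in rat 3, at -0.60, and highest in rat 7, at 0.47.

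Among the structural proteins of the sheath, Mbp ranged from 14.17 in rat 3 through a median of 14.54 to 14.75 in rat 7, a span of 1.50-fold. Mobp ranged from 12.56 in rat 3 through 13.15 to 13.68 in rat 7, a span of 2.16-fold. Cldn11, the tight junction protein, ranged from 11.54 in rat 3 through 12.12 to 12.47 in rat 7, a span of 1.90-fold. These genes thus shared their lowest and highest rats. The span of Mbp differed between its probe sets: 1387341_a_at spanned 2.14-fold and 1383479_at 1.26-fold. Mal ranged from 9.91 in rat 3 through 10.60 to 11.20 in rat 7, a span of 2.44-fold. The spread of Mbp over rats (SD 0.19) was larger than that of 72.0% of all tested probe sets.

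The proteins of the sheath's inner and outer faces and its cytoplasm spanned more than 2-fold. Mag ranged from 8.76 in rat 3 through 9.58 to 10.05 in rat 7, a span of 2.44-fold. Mog ranged from 9.11 through 9.96 to 10.32 in the same rats, a span of 2.30-fold. Cnp ranged from 10.65 through 11.30 to 11.77, again in rats 3 and 7, a span of 2.18-fold. For Mag, rats 1, 2 and 3 lay at 9.13, 9.12 and 8.76, and the other 7 rats lay at 9.43 or above.

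Of the enzymes of galactolipid synthesis, Ugt8 had the larger span. It ranged from 8.36 in rat 3 through 9.31 to 9.78 in rat 7, a span of 2.68-fold, and its SD of 0.49 was larger than that of 97.2% of tested probe sets. Fa2h ranged from 9.16 through 9.87 to 10.21 in rat 7, a span of 2.06-fold. Its lowest rat was rat 2, and rat 3 was at 9.50. Without rat 3 the spans of Cldn11, Mog and Mobp narrowed by more than their SD over rats. On the log2 scale they fell from 0.93 to 0.61, from 1.20 to 0.76 and from 1.11 to 0.77. No gene had a rat standing apart by Dixon's gap ratio: the largest ratio over the 16 probe sets was 0.365, below the critical value for 10 rats.

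Where a gene had several probe sets, most repeated the order of the rats. The other Cnp probe set (1370693_a_at) had r = 0.96 with the representative, and those of Mobp had 0.91 (1368263_a_at) and 0.92 (1370500_a_at), with spans of 2.33-fold and 2.71-fold, the latter the widest of the 16 probe sets. The other Cldn11 probe set (1369609_at) followed less closely, with r = 0.74, and was highest in rat 10. Mbp was split. Its probe set 1387341_a_at spanned 2.14-fold, from 13.18 in rat 3 to 14.27 in rat 6, and had r = 0.98 with the representative. Its probe set 1383479_at ran from 10.28 in rat 9 to 10.61 in rat 1, had r = -0.15 with the representative and r = -0.41 with the mean of the other members. The Ugt8 probe set 1368857_at was below the filter, at 2.63 to 2.79, and was not tested.

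**Figure D2:**
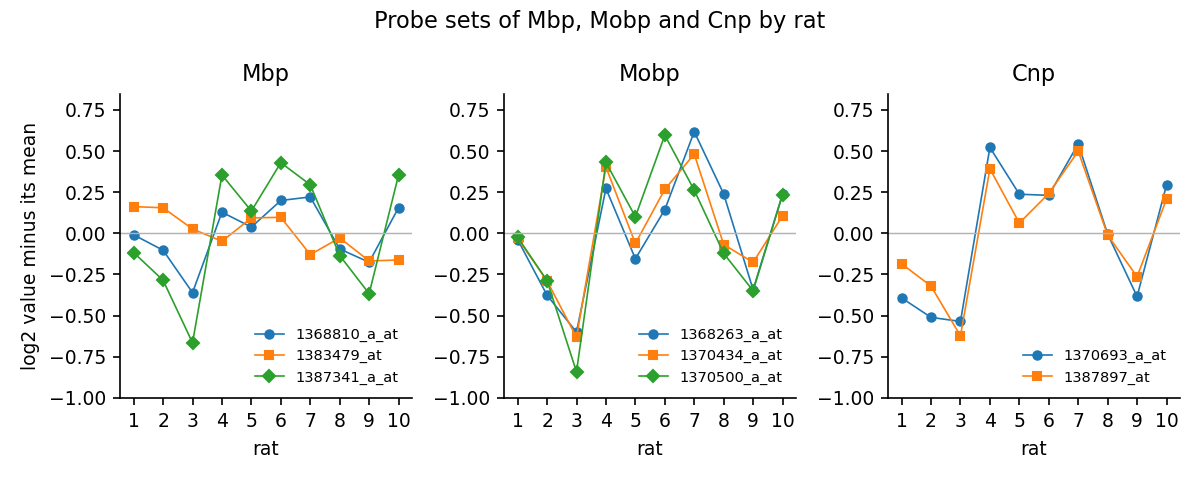
Each probe set of Mbp, Mobp and Cnp in 10 rats (x axis), as the log2 value minus its own mean (y axis). Lines join the rats of a probe set for legibility, since rats have no order. All lines dip in rat 3 except that of the Mbp probe set 1383479_at, which spans 1.26-fold.

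The members were compared with each other in 36 pairs, over the 10 rats, with two-sided permutation tests of 100000 resamples and Benjamini-Hochberg adjustment over the 36. The adjusted p was under 0.05 in 35 pairs by Pearson's r and in 35 by Spearman's rho. How many pairs of other probe sets would pass was not counted. Over the 36 pairs, r ran from 0.61 to 0.98 with a median of 0.92. With the 2 rats farthest from the median left out it ran from 0.49 to 0.99. Leaving out each rat in turn gave 33 to 36 pairs past the threshold and a median r of 0.88 to 0.94.

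Cnp and Ugt8 ordered the 10 rats identically, with rho = 1.00 (permutation p = 1e-05, the smallest these resamples can give; adjusted p = 0.00018). Their r was 0.98 (permutation p = 1e-05, adjusted p = 9e-05) and 0.97 without rats 3 and 7. Mal and Cnp had r = 0.98 (permutation p = 2e-05, adjusted p = 9e-05), rho = 0.96 and r = 0.97 without rats 3 and 7. The pair that missed the threshold was Cldn11 with Fa2h, with r = 0.61 (permutation p = 0.0561, adjusted p = 0.0561), rho = 0.64 and r = 0.49 without rats 3 and 7. Against the mean of the other members, Fa2h had the lowest r of the 9 genes at 0.81, and Cnp the highest at 0.99. Mog had r = 0.98 there and rho = 1.00, so it put the rats in the same order as the mean of the others.

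The rest of the array was then ranked by its r with the mean of the 9 centred genes, which is a description with no test because all points are the same 10 arrays. Over all tested probe sets the median r was 0.13, 60.1% had r over 0 and 1.89% had r over 0.8. Of 39 other genes of myelin and mature oligodendrocytes, 27 were tested, 27 had r over 0 and 21 had r over 0.8, and the median was 0.92. The lowest of these was Omg, a myelin glycoprotein that neurons also make, at 0.39. The 10 genes with the highest r were Apod (0.99), Chn2 (0.99), Pllp (0.98), Ermn (0.98), Gpr37 (0.98), Opalin (0.98), Tspan2 (0.97), Patz1 (0.96), Wscd1 (0.96) and Enpp4 (0.96). Apod, Pllp, Ermn, Gpr37, Opalin and Tspan2 are on the myelin list. The 5 lowest were Fezf2 (-0.94), a transcription factor of deep cortical neurons, Nktr (-0.94), Kif3a (-0.91), Col4a2 (-0.89) and Cxcl12 (-0.89).

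The regulators of the lineage all had r over 0, from 0.16 to 0.92. Of 5 tested, Olig1 (0.92), Sox10 (0.91) and Myrf (0.87) had r over 0.8, Nkx2-2 had 0.69 and Zfp536 had 0.16. Olig2 was below the filter. Of 9 tested precursor genes 6 had r over 0 and 1 had r over 0.8, Bcan at 0.83, with a median of 0.47. They ran from -0.37 to 0.83, and the mean of the list had r = 0.72 with the members' mean. Pdgfra, the growth factor receptor that defines precursors, had 0.23. Of 14 other genes of myelin lipid metabolism 0 had r over 0.8, and their median was 0.62. This list holds enzymes of synthesis and also Galc and Arsa, which break galactolipids down and were at -0.21 and -0.50. Cers2, which makes the very long ceramides of myelin, was at 0.74. The difference between the lists was not tested.

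**Figure D3:**
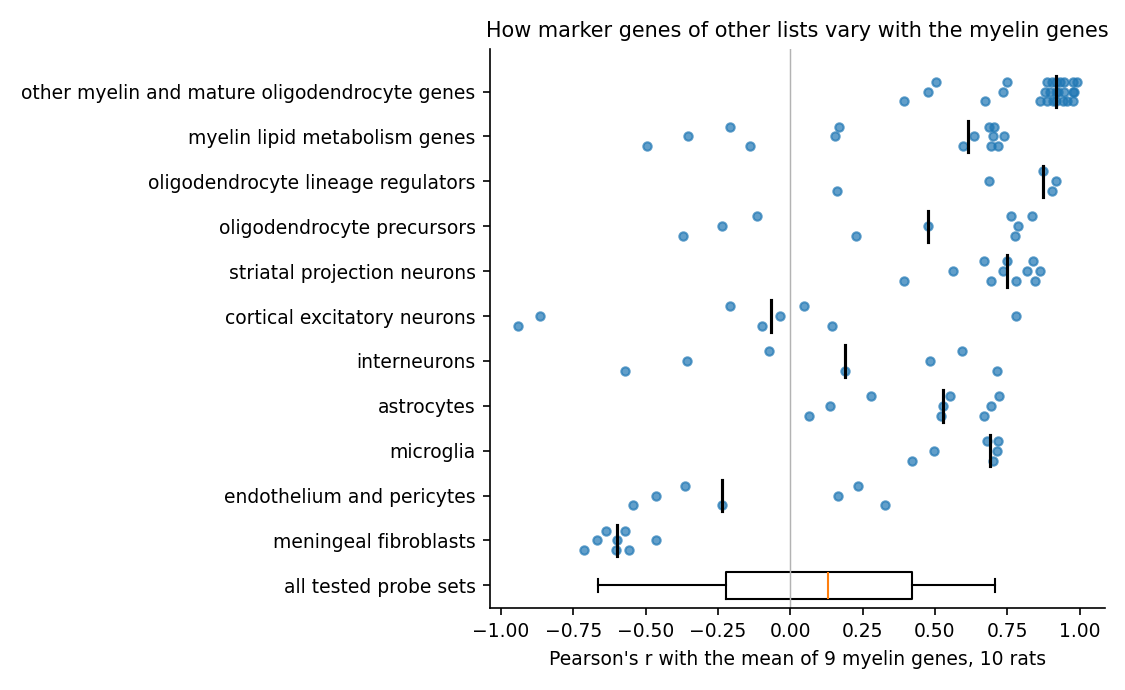
Pearson's r of each tested gene with the mean of the 9 myelin genes over 10 rats (x axis), by gene list (y axis). Points are genes, black bars are list medians, and the box shows all tested probe sets with its median at 0.13 and whiskers at the 5th and 95th percentiles. The other myelin genes have a median of 0.92 and the meningeal genes -0.60.

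Markers of other cells moved with the members too. Of 16 genes that mark striatal projection neurons, 11 were tested and 4 of these had r over 0.8 with the members' mean, with a median of 0.75. Their mean level ran from 7.79 to 9.52 between rats, and the list's r with the members' mean was 0.81 (rho = 0.93). Tac1, Adora2a, Gpr6 and Isl1 were below the filter. Of meningeal fibroblast genes, 8 of 10 were tested, the median r was -0.60, and the mean level ran from 7.36 to 9.44, highest in rats 9 and 3. The mean of 6 microglial genes had r = 0.87 with the members' mean, above that of the striatal list, with a median gene at 0.69 and levels of 6.96 to 7.38, and Aif1, Cx3cr1, Itgam and Cd68 were below the filter. The medians were 0.53 for 9 astrocyte genes, 0.19 for 7 interneuron genes, -0.07 for 8 genes of cortical excitatory neurons and -0.24 for 7 genes of endothelium and pericytes.

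Markers of Schwann cells, which make myelin outside the brain, were mostly low: Prx, Pmp2 and Ngfr were below the filter, and Egr2 (r = -0.45) and Pmp22 (r = 0.73) were tested. Whether Egr2 and Pmp22 were read from Schwann cells was not tested. None of 5 choroid plexus genes passed the filter, and 1 of 5 olfactory bulb genes did, Cdhr1, with r = -0.03. Slc17a7, the vesicular glutamate transporter of cortical excitatory neurons, was at 12.50 to 12.86 in the 10 rats.

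Each member was set against 8 defining markers in 72 pairs, adjusted together, and 31 were past the threshold by r and 26 by rho. How many of all tested probe sets would pass with these markers was not counted. The members vary nearly together, with a median r of 0.92 between them, so counts over them are not separate results. Sox10 passed with 9 of 9 members (r 0.75 to 0.96) and Pdgfra with 0 of 9 (r -0.08 to 0.56). Of the striatal markers, Ppp1r1b passed with 9 of 9 (r 0.71 to 0.89) and the dopamine receptor gene Drd1 with 8 of 9 (r 0.67 to 0.87). Gfap passed with 3 by r and 0 by rho, Aif1, itself below the filter, with 2 by r and 0 by rho, and Cldn5 and Col1a2 with 0. The count depended on rats 7 and 3. Without rat 7 it fell to 10 pairs, with Sox10 at 6 members, Ppp1r1b at 3 and Drd1 at 1, and without rat 3 it was 17.

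Mag gave the closest of the pairs with Sox10, at r = 0.96 (permutation p = 4e-05, adjusted p = 0.00288), rho = 0.93 (permutation p = 0.00029, adjusted p = 0.00411) and r = 0.94 without rats 2 and 3. Drd1 was at 5.79 to 6.28 in rats 1, 2, 3, 6 and 9, at 7.25 and 7.73 in rats 5 and 8, and at 8.38, 9.07 and 9.60 in rats 10, 4 and 7. Mag was highest in rats 7, 4 and 10 as well, and its r with Drd1 was 0.84 (permutation p = 0.00323, adjusted p = 0.0173). By ranks, the Spearman coefficient was 0.98 (permutation p = 2e-05, adjusted p = 0.00072), and r was 0.82 without rats 2 and 3. Rat 6 was at 6.28 for Drd1, among the low rats, and at 9.73 for Mag.

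The array measures had r near 0 with the members. Over the 10 rats the r with the members' mean was -0.07 for the spike-in controls, 0.03 for the 3' to 5' difference of the actin and Gapdh controls, which rises as RNA degrades, and -0.01 for the array median. Array medians were 3.91 to 4.02, pairs of arrays had r = 0.996 to 0.999 across probe sets, which are not independent replicates, and 0 pairs of arrays held identical values. With 10 arrays, their number sets how precise a slope or an r can be.

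The design asks how expression goes with behaviour between rats of 1 inbred strain. Scores ran from 363 to 943 for startle, the response to a loud sound, and from 6.80 to 42.5 for prepulse inhibition, the weakening of that response by a softer sound before it. They ran from 9420 to 17987 for locomotion, from 0 to 2.15 for sugar feeding and from 0 to 60.3 for the plus maze. For each probe set limma fitted the log2 value on the score, and slopes are in log2 units for a rise of 1 SD in the score, with the SE after each. Adjusted p is Benjamini-Hochberg over 15521 probe sets.

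With prepulse inhibition all 9 genes had positive slopes and none passed the adjusted threshold. The number of member probe sets called was 0 of 15 with limma, where 0% of all tested probe sets were called, and also 0 with the unmoderated regression and with limma's trend and robust options. At an unadjusted p under 0.05, 2 had positive slopes, against 1.97% of all tested probe sets, and 0 had negative slopes, against 5.44%. The median slope of the 9 genes was 0.15, against -0.01 over all tested probe sets, of which 41.3% had positive slopes.

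Mag had the largest slope with prepulse inhibition, at 0.24 ± 0.11 log2 per SD (SE, n = 10; limma p = 0.0423, adjusted p = 0.662). In rats 1 to 10 its level was 9.13, 9.12, 8.76, 9.93, 9.44, 9.73, 10.05, 9.76, 9.43 and 9.83, and the score was 6.80, 10.7, 18.4, 42.5, 39.4, 25.4, 26.7, 40.2, 37.4 and 25.3. The 3 rats with the lowest scores, rats 1, 2 and 3, held the 3 lowest values of Mag, and above them the order broke up: rat 7 had the highest Mag at a middling score. Fa2h had 0.20 ± 0.08 (limma p = 0.0373, adjusted p = 0.655), and the same 3 rats were its lowest, at 9.50 or below against 9.56 or above. Such a split was seen in 2 of 9 member genes and in 1.69% of all tested probe sets, and it was looked for after the values were seen. Leaving out each rat in turn gave 0.19 to 0.28 for Mag and 0.12 to 0.24 for Fa2h.

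Among the other members Ugt8 had 0.22 ± 0.14 with prepulse inhibition, Mog 0.16 ± 0.10, Cnp 0.15 ± 0.10 and Mal 0.14 ± 0.12. Mobp had 0.11 ± 0.10, Cldn11 0.09 ± 0.08 and Mbp 0.03 ± 0.06. Other probe sets gave 0.24 ± 0.11 for Cnp (1370693_a_at), 0.20 ± 0.10 for Cldn11 (1369609_at) and 0.11 ± 0.11 for Mbp (1387341_a_at). The order of the genes by slope thus depends on the probe set taken. The Mbp probe set 1383479_at had -0.07 ± 0.04, the one negative slope of the 15. All 9 stayed positive with each rat left out, but the median fell from 0.15 to 0.10 and the Mbp slope to 0.0012 without rat 3. Without rat 3 or rat 4 the slopes of Cldn11 were 0.05 and 0.06, those of Mal 0.09 each, those of Mobp 0.06 each, and Mog had 0.10 without rat 3. With the mean of the striatal markers as a covariate, 8 of 9 genes kept a positive slope and the median fell from 0.15 to 0.047.

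With startle the slopes were again positive in 9 of 9 genes, with a median of 0.10 against -0.02 over all tested probe sets, of which 37.7% were positive. The number called was 0 of 15 (0% of all tested probe sets), by limma and by the same 2 other fits. At an unadjusted p under 0.05, 1 was positive, against 1.28% of all tested, and 1 was negative, against 4.3%. The positive one was Fa2h, at 0.21 ± 0.08 (SE, n = 10; limma p = 0.0284, adjusted p = 0.808), and the negative one was the Mbp probe set 1383479_at, at -0.08 ± 0.04 (limma p = 0.0488, adjusted p = 0.808). Ugt8 and Mag followed at 0.17 ± 0.14 and 0.17 ± 0.12, then Cnp at 0.11 ± 0.10, Mal at 0.10 ± 0.13 and Mog at 0.10 ± 0.11. Mobp had 0.09 ± 0.10, Cldn11 0.08 ± 0.08 and Mbp 0.04 ± 0.06. Other probe sets gave 0.17 ± 0.12 for Cnp (1370693_a_at), 0.14 ± 0.11 for Cldn11 (1369609_at) and 0.09 ± 0.11 for Mbp (1387341_a_at). The median of the 9 genes fell to 0.03 when rat 7 was left out and to 0.05 for rat 2. It rose to 0.16 for rat 4 and to 0.18 for rat 9, and all 9 slopes were positive in each of these fits. Startle and prepulse inhibition scores had r = 0.45 with each other, so the 2 sets of slopes share their rats and part of their order.

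**Figure D4:**
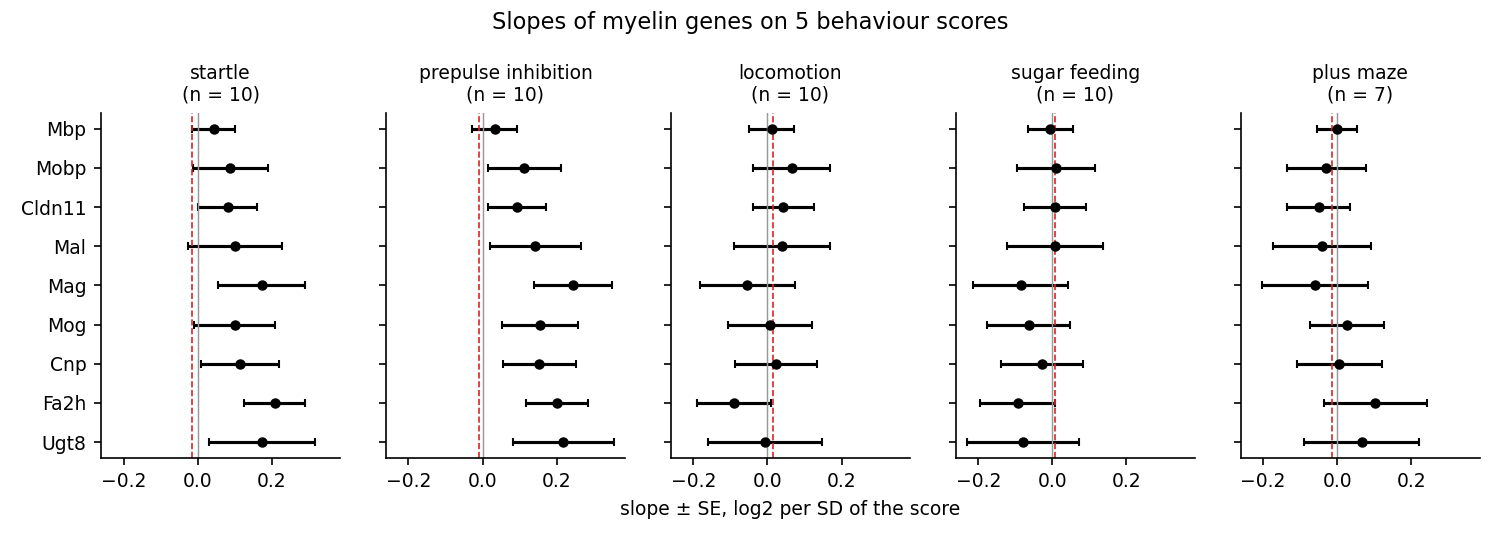
Slope of each myelin gene on 5 behaviour scores, in log2 per SD of the score (x axis), with bars of 1 SE. The dashed red line is the median slope of all tested probe sets. All 9 points lie above 0 for startle and for prepulse inhibition, with medians of 0.10 and 0.15, and on both sides of 0 for the other scores.

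For the other scores the members lay around 0, and 0 of 15 probe sets were called or had an unadjusted p under 0.05. With locomotion 6 of 9 slopes were positive (65.4% of all tested), from -0.09 for Fa2h to 0.07 for Mobp, with a median of 0.01, and 4 of 9 were positive when arrays were quantile normalised or centred on their medians. Without rat 4 this count was 0 of 9. At that unadjusted threshold 2.31% of all tested probe sets were positive and 0.619% negative. With sugar feeding 3 of 9 were positive (58.4% of all tested), from -0.09 to 0.01, and 0 of 9 under both other scalings, and the count ran from 0 without rat 4 or rat 7 to 8 without rat 3. The background there was 1.45% positive and 0.677% negative. With the plus maze score, over 7 rats, 4 of 9 were positive (39.2% of all tested), from -0.06 for Mag to 0.10 for Fa2h, against a background of 1.2% positive and 5.74% negative. This count ran from 1 of 9 without rat 2 to 9 of 9 without rat 5, and was 8 of 9 with the striatal marker mean as a covariate. No probe set of the array was called for any of the 5 scores. The counts for startle and prepulse inhibition stayed at 9 of 9 under both other scalings, but the background moved. After quantile normalisation 8782 of 15521 tested probe sets were positive for startle and 8861 for prepulse inhibition, against 5846 and 6403 as deposited. With arrays centred on their medians the numbers were 8746 and 8238. Under both scalings the median slope of all tested probe sets turned positive for both scores, at 0.004 to 0.008.

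**Figure D5:**
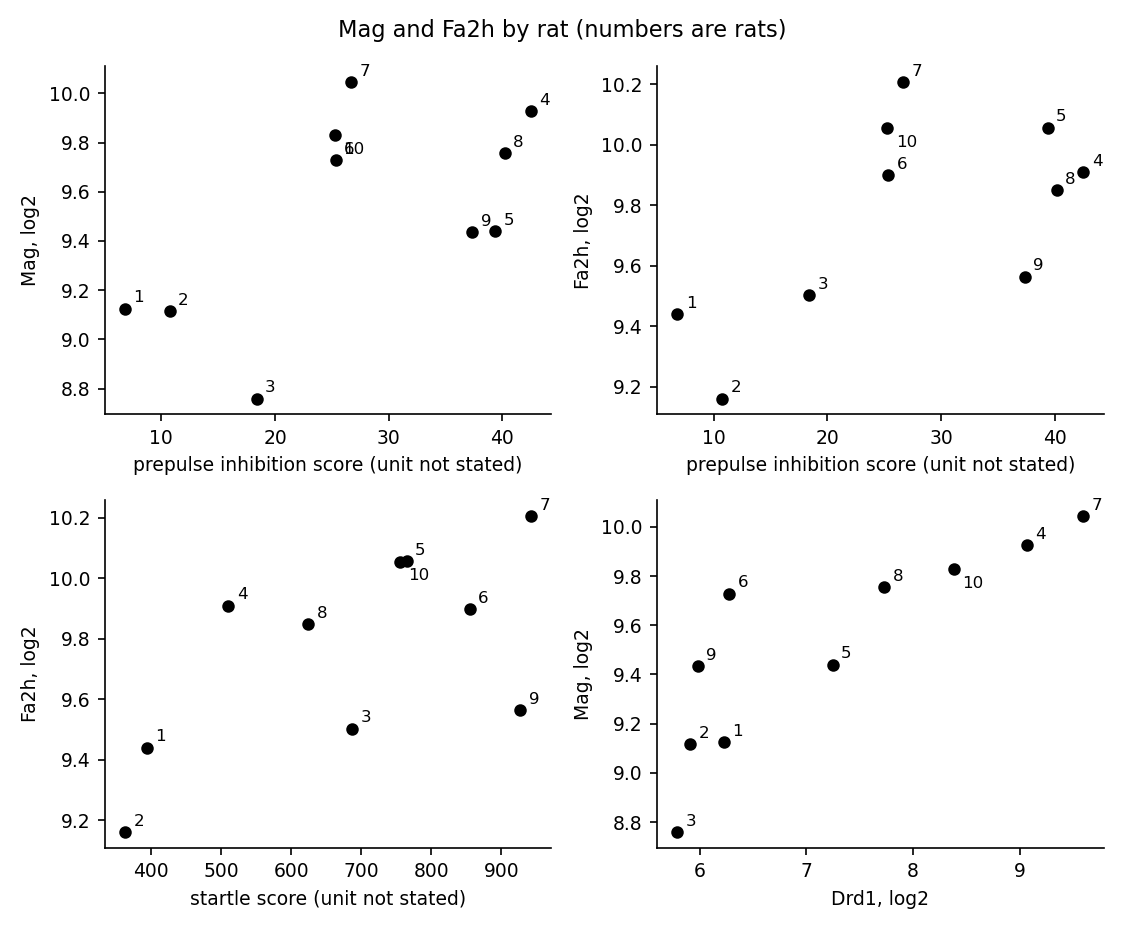
Level of Mag and Fa2h (log2, y axes) in 10 rats, numbered, against the prepulse inhibition score, the startle score and the level of Drd1 (log2). Rats 1, 2 and 3 lie at the lower left of both prepulse panels, with Mag at 9.13 or below and Fa2h at 9.50 or below, and rats 4, 7 and 10 lie at the upper right of the Drd1 panel.

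Most other genes of the sheath had slopes of the same sign as the members. Of 27 other myelin genes, 25 had positive slopes with prepulse inhibition (median 0.09) and 23 with startle (median 0.07), and 0 were called. Their mean had r = 0.99 with the members' mean over the same 10 arrays, so these counts are not a separate result. Over all tested probe sets 41.3% and 37.7% had positive slopes, which is the background for the other lists too. Ppp1r14a had the largest with prepulse inhibition, at 0.32 ± 0.13 (limma p = 0.0296, adjusted p = 0.630), followed by Apod at 0.19 ± 0.10 and Klk6, a protease of oligodendrocytes, at 0.19 ± 0.17. Of the 5 regulators tested, 4 had positive slopes with each score and 0 were called. Sox10 had 0.29 ± 0.09 with prepulse inhibition (limma p = 0.00833, adjusted p = 0.630) and 0.19 ± 0.11 with startle. Myrf had 0.20 ± 0.10 and 0.16 ± 0.11, and Zfp536 had -0.09 ± 0.07 and -0.11 ± 0.07.

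Of the 14 other genes of lipid metabolism, 10 had positive slopes with prepulse inhibition (median 0.03) and 9 with startle (median 0.01), and 0 were called. The breakdown enzymes Galc and Arsa were among those positive with startle, at 0.08 ± 0.08 each. Cers2 had 0.23 ± 0.07 with startle (limma p = 0.00901, adjusted p = 0.808) and 0.12 ± 0.09 with prepulse inhibition. Far1, an enzyme of ether lipid synthesis, had -0.16 ± 0.07 with startle (limma p = 0.0348, adjusted p = 0.808). Of 9 precursor genes 6 and 4 had positive slopes (medians 0.01 and -0.01). With prepulse inhibition they ran from -0.09 to 0.15, and Pdgfra had -0.09 ± 0.06. Striatal markers were positive in 10 of 11 for both scores, with medians of 0.23 and 0.13, and 0 were called. Meningeal genes were negative in 7 of 8 with prepulse inhibition (median -0.15) and positive in 6 of 8 with startle (median 0.07), and 0 were called.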

How the data were processed

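RNA from the prefrontal cortex of 10 rats was read on 1 Affymetrix array each. The authors deposited log2 values per probe set, made with GCRMA under R 2.6.2 per the submitters' processing notes, which name no GCRMA version. GCRMA normalises arrays to each other, so a true shift shared by all genes cannot be read from the values. Small differences between arrays remained, with array medians of 3.91 to 4.02. Quantile normalisation of the deposited values shifted an array by a median of up to 0.066. From the 31099 deposited probe sets 57 controls were left out, and the 50% of highest mean were tested (mean log2 at least 3.99).

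Slopes on scores scaled to an SD of 1 were fitted by lmFit and eBayes of limma 3.58.1 under R 4.3.3 (two-sided, adjusted over all tested probe sets, threshold 0.05), and the fit was tested on simulated data. Symbols came from the platform annotation. Permutation tests were run with numpy 2.4.6, on ranks from scipy 1.17.1 for Spearman's rho. Motifs were counted in RefSeq windows of GRCr8.

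The members and lists were chosen with earlier results of these data known. Named were all members, the 10 genes most like their mean, the 5 least like it, and of each list genes of largest slope; other genes named as examples were chosen after their values were seen. The alternatives were other scalings, filters, variance models, covariates, score ranks, means over probe sets and leaving out each rat.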

Additional observations from a re-analysis of the deposited data

How the results depend on the processing

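No paired analysis was possible because every animal has 1 array and the design holds no repeat or partner for it. Every alternative left 0 member probe sets called, and the 9 slopes on startle kept their sign under all of them. The median slope on prepulse inhibition moved from 0.15 to 0.047 with the striatal marker mean as a covariate, and the median on locomotion from 0.01 to 0.14 with the 4 scores in 1 model. The Mbp slope on prepulse inhibition, 0.03, turned to -0.018 and -0.017 under these 2 settings. Leaving out 1 rat at a time gave 10 (without rat 7) to 32 of 72 pairs of a member and a marker past the threshold, against 31 with all rats, and 17 without rat 3; rank correlation, chosen after seeing the data like these omissions, gave 26. The cause was not tested. With 10 arrays the SE of a member's slope was 0.06 to 0.14 log2 per SD for startle and prepulse inhibition, so slopes of the size seen are close to the precision. Scores on a scale with no stated unit limit what a slope means outside these rats.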

Other observations

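Several genes outside the myelin lists ran against or with the members over the 10 rats, given here as values with no test. Within the list of cortical excitatory neurons the genes went apart: Fezf2 and Rorb had r = -0.94 and -0.86 with the members' mean, Bcl11b had 0.78, and Slc17a7 and Neurod6 lay at 0.05 and -0.04. Fezf2 was at 9.11 to 9.46, a span of 1.27-fold, and Nktr, with r = -0.94, spanned 1.81-fold. Chn2, a regulator of Rac signalling that was on no list, had r = 0.99 and spanned 3.36-fold, more than any of the 16 member probe sets. On the interneuron list Slc32a1, the vesicular GABA transporter, had r = 0.71 and spanned 4.11-fold. Vip, on the same list, had r = -0.57 and spanned 1.32-fold. Which cells Slc32a1 and Bcl11b were read from was not tested. All 9 astrocyte genes and all 7 genes of endothelium and pericytes had negative slopes with prepulse inhibition, with medians of -0.03 and -0.06 log2 per SD and 0 called, as did 7 of 8 meningeal genes, with a median of -0.15 and 0 called. Over all tested probe sets 41.3% had positive slopes with this score and the median slope was -0.01. Under both other scalings that median turned positive.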
